A study of Homo sapiens with 4 samples.

Results

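Expression of ZNF24 and 7 other genes of the SCAN zinc finger family was followed in HCT116 cells treated with HJ-4. HCT116 is a long-established line from a human colorectal carcinoma. The 8 genes are ZNF24, its chromosome 18 neighbours ZNF396, ZNF397 and ZSCAN30, and ZNF174, ZSCAN16, ZSCAN21 and ZKSCAN1 from other chromosomes. They were taken by symbol from 20263 Ensembl gene IDs, and all 8 were among the 14044 genes with enough counts to be tested. The set was chosen by the rise of ZNF24 from DMSO to HJ-4 in these same libraries, so the values of ZNF24 are given as a description and without a test. HJ-4 is an amide derivative of piperine, the pungent alkaloid of pepper. Wild-type HCT116 cells received 32 µM HJ-4 for 24 h, and control cells received 0.1% DMSO, the vehicle, for 24 h. This dose is the one in the labels and methods, and a figure legend of the study gives a lower one. RNA was sequenced in bulk, and 2 libraries per condition were analysed here. Triplicate cultures are described in the study's methods. Because the labels do not tie the analysed libraries to separate cultures, p-values here measure the spread between libraries, which may be technical.

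SCAN zinc finger proteins carry a SCAN domain near the N terminus, through which they form homodimers and dimers with other SCAN proteins. A row of C2H2 zinc fingers at the C terminus binds DNA. Some members, ZKSCAN1 among them, hold a KRAB domain as well. Many KRAB domains, though not all, recruit the co-repressor TRIM28, and whether that of ZKSCAN1 does so was not tested here. ZNF24, also called ZNF191, has no KRAB domain, is known to bind TCAT repeats and has been described as a repressor of VEGFA, the gene of the vascular endothelial growth factor.

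The libraries held 29769568 to 34359889 counts. Levels are given in CPM, a gene's count relative to the library total, after scaling by the trimmed mean of M values (TMM), with scaling factors from 0.988 to 1.01. Mitochondrially encoded genes took 6.01% to 7.73% of the counts. The epithelial markers EPCAM (244 to 268 CPM), KRT8 (1702 to 1903 CPM), KRT18 (469 to 541 CPM) and KRT19 (1475 to 1709 CPM) were present in every library. CDH1, a further epithelial marker, had 83.4 and 73.5 CPM with DMSO and 101 and 108 CPM with HJ-4. Of markers of other cell types, CD3E was at 0 and PTPRC at no more than 0.0599 CPM. The endothelial marker PECAM1 was at no more than 0.0955 CPM. VWF, also endothelial, had 0.987 and 0.698 CPM with DMSO and 1.38 and 1.20 CPM with HJ-4. The fibroblast collagen gene COL3A1 was at no more than 0.210 CPM, while COL1A1 lay between 58.2 and 62.6 CPM and CD68 between 33.9 and 50.4 CPM. In bulk RNA, fewer cells with a transcript and less transcript per cell cannot be told apart.

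The stretches upstream of the RefSeq starts of ZNF24, ZNF397 and ZSCAN30 are shown because these 3 genes are neighbours. Of them, ZNF24 rose with HJ-4 and the others did not pass the test. All are from RefSeq promoter windows on GRCh38.p14, without the bases that fall in the gene's own exons, and are written 5′ to 3′ on the strand of the gene. Capitals mark the GC box GGGCGG on either strand (CCGCCC when it lies on the other strand) and the ETS core CCGGAAG. The ZNF24 stretch is chr18:35344457-35344668 (minus strand), 212 bases ending 37 bases before the RefSeq start. By GENCODE v44 the gene begins at 35345482, so this stretch lies inside the gene span, between exons. The stretches of ZNF397 and ZSCAN30 instead border the GENCODE starts of their genes (35241030 and 35290245), so the positions compared are unlike. The ZNF397 stretch is chr18:35240784-35241029 (plus strand), 246 bases, and the ZSCAN30 stretch is chr18:35290246-35290479 (minus strand), 234 bases.
ZNF24: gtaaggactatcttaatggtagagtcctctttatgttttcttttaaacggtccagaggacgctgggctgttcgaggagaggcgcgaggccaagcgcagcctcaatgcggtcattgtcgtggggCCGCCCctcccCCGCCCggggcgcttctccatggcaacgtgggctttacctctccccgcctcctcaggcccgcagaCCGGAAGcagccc
ZNF397: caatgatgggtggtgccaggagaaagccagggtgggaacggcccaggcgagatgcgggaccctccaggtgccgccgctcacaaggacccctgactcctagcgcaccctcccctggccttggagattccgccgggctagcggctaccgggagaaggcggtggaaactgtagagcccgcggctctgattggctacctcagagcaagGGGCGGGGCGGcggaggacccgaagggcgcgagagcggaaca
ZSCAN30: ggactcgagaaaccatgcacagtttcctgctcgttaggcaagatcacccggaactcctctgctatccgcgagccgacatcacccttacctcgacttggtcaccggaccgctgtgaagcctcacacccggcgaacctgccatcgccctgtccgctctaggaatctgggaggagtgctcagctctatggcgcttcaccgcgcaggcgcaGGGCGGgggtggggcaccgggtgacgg

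The 3 stretches were alike in base composition, with 61.8% G and C and 16 CpG dinucleotides in ZNF24, 67.9% and 20 in ZNF397, and 63.7% and 20 in ZSCAN30. The whole window of ZNF24 held 2 GC boxes, both on the other strand, and 1 ETS core. ZNF397 held 2 GC boxes, which overlap by 1 base, and 1 ETS core on the other strand, outside the stretch printed. ZSCAN30 held 1 GC box and no ETS core. The windows of ZNF174, ZSCAN21 and ZKSCAN1 held ETS cores as well. A GC box was present in 45% and an ETS core in 10.3% of all 35116 windows of the same length, with both strands searched. No match in the ZNF24 window was found for TCATTCAT (1.34% of windows), for TGATGNAA, the core of the amino acid response element (3.62%), for the E-box CACGTG (7.26%) or for CCAAT (34.6%). TCATTCAT was not found in any of the 6 member windows in the RefSeq table, which has no entry for ZNF396 or ZSCAN16. The bases upstream of the GENCODE start of ZNF24 were not searched.

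ZNF24 (ENSG00000172466) was the member that rose. It lies on chromosome 18 of GRCh38 from 35332227 to 35345482 on the minus strand (GENCODE v44). Its level was 32.0 and 25.8 CPM in DMSO replicates 1 and 2, and 158.5 and 150.6 CPM in HJ-4 replicates 1 and 2. Both HJ-4 libraries stood far above both DMSO libraries, and the groups did not overlap. These levels rest on 1006 and 777 reads with DMSO and on 5400 and 5023 reads with HJ-4. The means were 28.9 ± 4.40 CPM (SD, n = 2) and 155 ± 5.65 CPM (SD, n = 2), a 5.34-fold difference, or a log2 fold change of 2.42 (standard error 0.13). On the log2 scale the DMSO libraries differed from each other by 0.31 and the HJ-4 libraries by 0.07, whereas the lowest HJ-4 library lay 2.23 above the highest DMSO library. No stretch of the ZNF24 canonical transcript of 100 or more bases was shared with another gene's transcript.

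The space between the groups was set beside the space between libraries of a condition in the 11182 genes that averaged 5 CPM or more. A space between the groups as wide as that of ZNF24 was found in 4 genes, ZNF24 included. Because ZNF24 was picked for its rise in these libraries, its place in this count follows from that choice and is only a description. The DMSO libraries lay as far apart in 33 genes and the HJ-4 libraries in 22 genes. Gaps of that size between libraries of a condition were thus present in the table, although ZNF24 itself did not show one. The space between the groups is taken between their nearest libraries, whereas a gap within a condition is 1 difference between 2 libraries. The counts of genes are therefore of unlike measures. The 3′ UTR of the ZNF24 canonical transcript has 5005 bases and is longer than that of 91.8% of these genes (median 1357 bases). Genes with a gap over 1 on the log2 scale between the DMSO libraries (1.98% of genes) had a median 3′ UTR of 2374 bases, against 1344 bases in the rest. The part of 3′ UTR length in the difference of ZNF24 was not tested.

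The neighbours of ZNF24 on chromosome 18 did not pass the test. ZNF397 lies on the plus strand at lower coordinates (35241030 to 35267133) and encodes a SCAN zinc finger protein (ENSG00000186812). Its level was 62.9 and 71.2 CPM with DMSO, and 72.1 and 76.6 CPM with HJ-4. The HJ-4 libraries lay above the DMSO libraries, but by less than the DMSO libraries differed from each other. Its log2 fold change was 0.15 (95% interval -0.10 to 0.40, adjusted p = 0.499 from the quasi-likelihood test of edgeR). ZSCAN30, which overlaps ZNF397 on the opposite strand, had 23.3 and 25.5 CPM with DMSO, and 26.9 and 25.3 CPM with HJ-4. Its groups overlapped, with a log2 fold change of 0.10 (95% interval -0.16 to 0.36, adjusted p = 0.657 from edgeR). ZSCAN30 shares 187 bases of its transcript with ZNF397, so without strand some reads cannot be assigned to either gene. For both genes the upper bound of the interval lies far below the log2 fold change of ZNF24.

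ZNF396, on the other side of ZNF24 at a distance of 21211 bases, was the member with the lowest level. It had 19 and 30 reads with DMSO, and 20 and 18 reads with HJ-4, or 0.605, 0.997, 0.587 and 0.540 CPM. The exact Poisson 95% intervals of these counts run from 11.4 to 29.7, from 20.2 to 42.8, from 12.2 to 30.9 and from 10.7 to 28.4 reads, for counting error only. All 4 intervals overlap. The log2 fold change was -0.50 with a wide 95% interval of -1.53 to 0.53 (adjusted p = 0.569 from edgeR). It was -0.82 without DMSO replicate 1 and -0.10 without DMSO replicate 2.

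**Figure D1:**
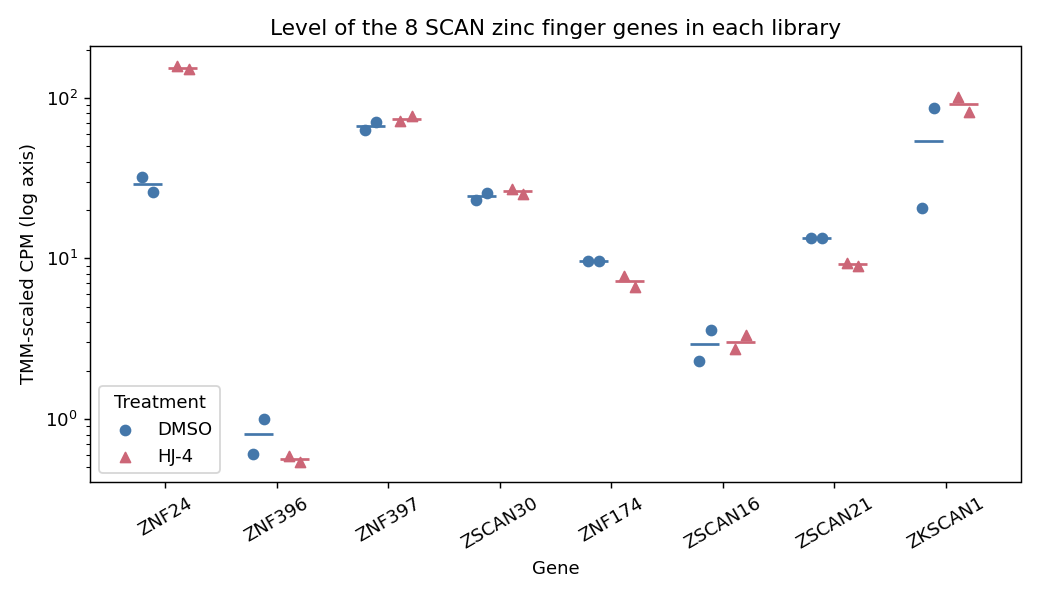
TMM-scaled CPM (log axis) of the 8 genes in each of the 4 libraries, with DMSO as circles, HJ-4 as triangles and the mean of each condition as a line. ZNF24 stands at 25.8 to 32.0 CPM with DMSO and 150.6 to 158.5 CPM with HJ-4, and the circles of ZKSCAN1 lie far apart, at 20.7 and 86.5 CPM.

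Beyond the SCAN genes, 3 tested genes start within 500 kb of ZNF24. MAPRE2, which encodes a microtubule end-binding protein, had 42.0 and 47.1 CPM with DMSO and 38.5 and 41.5 CPM with HJ-4 (log2 fold change -0.15, adjusted p = 0.52 from edgeR). INO80C, a subunit gene of the INO80 chromatin remodeller, had 11.1 and 10.6 CPM with DMSO and 11.7 and 13.2 CPM with HJ-4 (0.20, adjusted p = 0.479). GALNT1, an O-glycosylation enzyme gene, had 83.5 and 93.6 CPM with DMSO and 75.8 and 88.9 CPM with HJ-4 (-0.10, adjusted p = 0.686). Of the 6 tested neighbours, 3 had a positive and 3 a negative log2 fold change, between -0.50 and 0.20. None reached an unadjusted p of 0.05 in edgeR, where 7.93% of all tested genes were higher and 7.93% lower, so that none of 6 is near the background. Counted within each library, reads of ZNF24 per read of ZSCAN30 were 1.38 and 1.01 with DMSO and 5.89 and 5.94 with HJ-4. Per read of GALNT1 they were 0.384 and 0.276 with DMSO and 2.09 and 1.69 with HJ-4. These ratios do not depend on how the libraries were scaled.

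**Figure D2:**
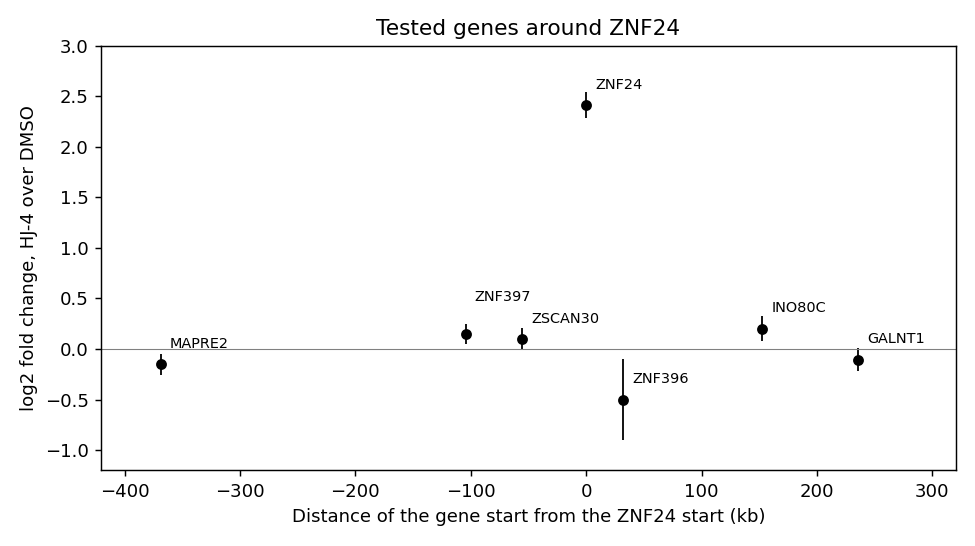
Log2 fold change (HJ-4 over DMSO) of ZNF24 and the 6 tested genes that start within 500 kb of it, against the distance between gene starts in kb, with bars for the standard error. ZNF24 stands at 2.42, and its 6 neighbours lie between -0.50 and 0.20.

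ZSCAN21 and ZNF174 had lower levels with HJ-4, without passing the adjusted threshold. ZSCAN21 on chromosome 7 (100049774 to 100065040) encodes a SCAN zinc finger transcription factor. Its level was 13.4 and 13.3 CPM with DMSO, and 9.37 and 8.99 CPM with HJ-4. The replicates were close to each other and the groups did not overlap, and the log2 difference was -0.54 (standard error 0.11, unadjusted p = 0.00519, adjusted p = 0.175 from edgeR). ZNF3 lies on the opposite strand and shares 881 bases with the ZSCAN21 transcript, 43.9% of its length. ZNF3 had 20.9 and 19.8 CPM with DMSO and 18.7 and 19.1 CPM with HJ-4. The log2 fold change of ZNF3 was -0.11, with a standard error of 0.10 and an unadjusted p of 0.331 from edgeR. Reads of the shared bases may have been counted for either gene.

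ZNF174 on chromosome 16 (3401215 to 3409364) encodes a protein known as a transcriptional repressor of growth factor genes. Its level was 9.62 and 9.67 CPM with DMSO, and 7.75 and 6.62 CPM with HJ-4, again without overlap. On the log2 scale the difference was -0.42 (standard error 0.14, unadjusted p = 0.0305, adjusted p = 0.273 from edgeR). ZSCAN16 on chromosome 6 had 2.29 and 3.59 CPM with DMSO, and 2.73 and 3.33 CPM with HJ-4. Its HJ-4 libraries lay within the range of the DMSO libraries, with a log2 fold change of 0.04 (95% interval -0.68 to 0.76, adjusted p = 0.955 from edgeR). ZSCAN16 shares 199 bases (15.6% of its transcript) with the antisense gene ZSCAN16-AS1, and ZNF174 shares 224 bases (9.11%) with ENSG00000285329. Part of the reads of ZSCAN16 and ZNF174 may therefore come from these partner genes. Neither partner is among the 20263 gene IDs, so their levels could not be read as for ZNF3.

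ZKSCAN1, the KRAB-containing member and the host of an abundant circular RNA, was uneven between the DMSO libraries. It lies on chromosome 7 from 100015572 to 100041689, next to ZSCAN21. Its level was 20.7 CPM in DMSO replicate 1 and 86.5 CPM in DMSO replicate 2, and 101 and 82.2 CPM in the HJ-4 libraries. DMSO replicate 1 alone was low, and DMSO replicate 2 lay between the HJ-4 libraries. With all 4 libraries the log2 difference was 0.78 (standard error 0.64, adjusted p = 0.58 from edgeR). Without DMSO replicate 1 it was 0.09 (adjusted p = 0.785), and without DMSO replicate 2 it was 2.15 (adjusted p = 0.0515 from edgeR). Its DMSO libraries differed by 2.06 on the log2 scale, and its 3′ UTR, with 7492 bases, is the longest of the 8 members. The part of that length in the gap was not tested.

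**Figure D3:**
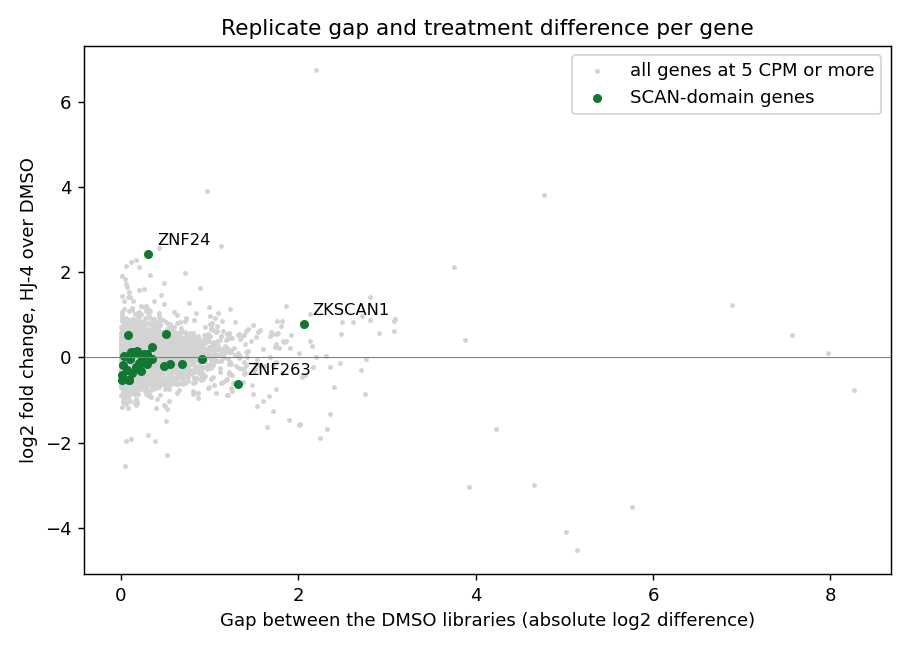
Log2 fold change (HJ-4 over DMSO) against the absolute log2 difference between the DMSO libraries, for 11182 genes averaging 5 CPM or more (grey) and the 39 SCAN-domain genes among them (green). ZNF24 has a gap of 0.31 and a log2 fold change of 2.42, whereas ZKSCAN1 and ZNF263 have gaps of 2.06 and 1.32.

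Over the 8 members, 0 of the 7 genes other than ZNF24 passed an adjusted p of 0.05 in edgeR, a threshold that 0.0498% of the 14044 tested genes passed. At an unadjusted p under 0.05, 0 of the 7 were higher and 2 were lower, where 7.93% of all genes were higher and 7.93% lower. ZNF174 lost this call when DMSO replicate 1, DMSO replicate 2 or HJ-4 replicate 2 was left out and with DESeq2's Wald test, which leaves ZSCAN21 as the only lower member. Without DMSO replicate 2, ZNF397 and ZKSCAN1 were higher at that threshold. HJ-4 libraries lay above the DMSO libraries in 1 of the 7 (ZNF397) and below in 3 (ZNF396, ZNF174 and ZSCAN21), against 25.2% and 25.6% of all genes. With 7 genes, nothing is read from these shares beyond the values.

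Levels were compared between genes per kilobase of exon, taken as the union of exons over all GENCODE transcripts of a gene. With DMSO, mean levels in CPM per kb were 7.69 for ZNF397, 6.24 for ZSCAN21, 5.19 for ZKSCAN1, 3.51 for ZNF24, 3.34 for ZNF174, 3.04 for ZSCAN30, 1.94 for ZSCAN16 and 0.132 for ZNF396. ZNF24, ZNF174 and ZSCAN30 lay close together in this order, and the DMSO libraries of ZKSCAN1 spanned most of it. The exon union has 8242 bases for ZNF24 and 8010 for ZSCAN30, whereas their canonical transcripts have 6256 and 4122 bases. By canonical length ZSCAN30 would stand above ZNF24 with DMSO, so the order of close genes depends on the length used. With HJ-4, ZNF24 stood first at 18.8 CPM per kb, ahead of ZKSCAN1 at 8.90 and ZNF397 at 8.54. ZSCAN21 (4.29), ZSCAN30 (3.26), ZNF174 (2.49), ZSCAN16 (2.00) and ZNF396 (0.0927) followed.

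The wider SCAN family was taken as a list of 55 genes. ZNF24 ranked 10 and 20 among the 55 in the DMSO libraries and 1 in both HJ-4 libraries by CPM per kb of exon union. Ranks by canonical transcript length were not computed. Its share of the summed level of the list was 2.78% and 2.10% with DMSO and 12.1% and 11.7% with HJ-4. The other genes of the list summed to 136 and 146 CPM per kb with DMSO and to 139 and 138 with HJ-4, which lies within the range of the DMSO libraries. The summed level of the rest of the family therefore differed between conditions by less than between the DMSO libraries.

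Of the 55 genes, 46 had enough counts to be tested. PEG3, SCAND3, ZSCAN1, ZSCAN18, ZSCAN23 and ZSCAN4 had 0 counts in every library, which allows a level of up to 0.0881 to 0.0997 CPM by the limit of 3 counts. ZKSCAN7, ZSCAN10 and ZSCAN5B had at most 7 counts in a library. Of the 46 tested genes, 20 had a positive and 26 a negative log2 fold change. Their median was -0.03, against 0.00 over all tested genes. At an unadjusted p under 0.05 in edgeR, 2 were higher (4.35%, ZNF449 and ZNF24, by which the set was chosen) and 4 were lower (8.7%, ZKSCAN2, ZSCAN21, ZNF232 and ZNF174). HJ-4 libraries lay above the DMSO libraries in 6 genes (13%), below in 11 (23.9%), and overlapped with them in 29. Over all tested genes these shares were 7.93% higher and 7.93% lower, with 25.2% above and 25.6% below. Without ZNF24, none of the remaining 45 passed the adjusted threshold, the smallest adjusted p being 0.168.

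ZKSCAN2, like ZKSCAN1 a gene for a protein with SCAN and KRAB domains, had 26.7 and 28.5 CPM with DMSO and 17.9 and 19.96 CPM with HJ-4, or -0.54 on the log2 scale (unadjusted p = 0.00417, adjusted p = 0.168 from edgeR). DESeq2's Wald test put this gene past the threshold, with an adjusted p of 0.0203. That test called 574 of the 14044 genes, against 7 with edgeR, and ZNF24 was the only other SCAN gene among them. ZNF232 had 6.18 and 6.58 CPM with DMSO and 4.23 and 4.65 CPM with HJ-4 (-0.52, adjusted p = 0.238 from edgeR). ZNF449, the second SCAN gene with a higher level at an unadjusted p under 0.05, had 12.3 and 17.6 CPM with DMSO and 22.3 and 21.1 CPM with HJ-4 (0.53, adjusted p = 0.292 from edgeR). The groups did not overlap in these 3 genes, which were named for their small unadjusted p in this same contrast. Over all tested genes, HJ-4 libraries lay above the DMSO libraries in 25.2% and below in 25.6%. ZSCAN5A, ZSCAN22 and ZSCAN20 followed by unadjusted p (0.0654, 0.0679 and 0.0687 in edgeR), with log2 fold changes of -0.47, -0.38 and -0.32.

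**Figure D4:**
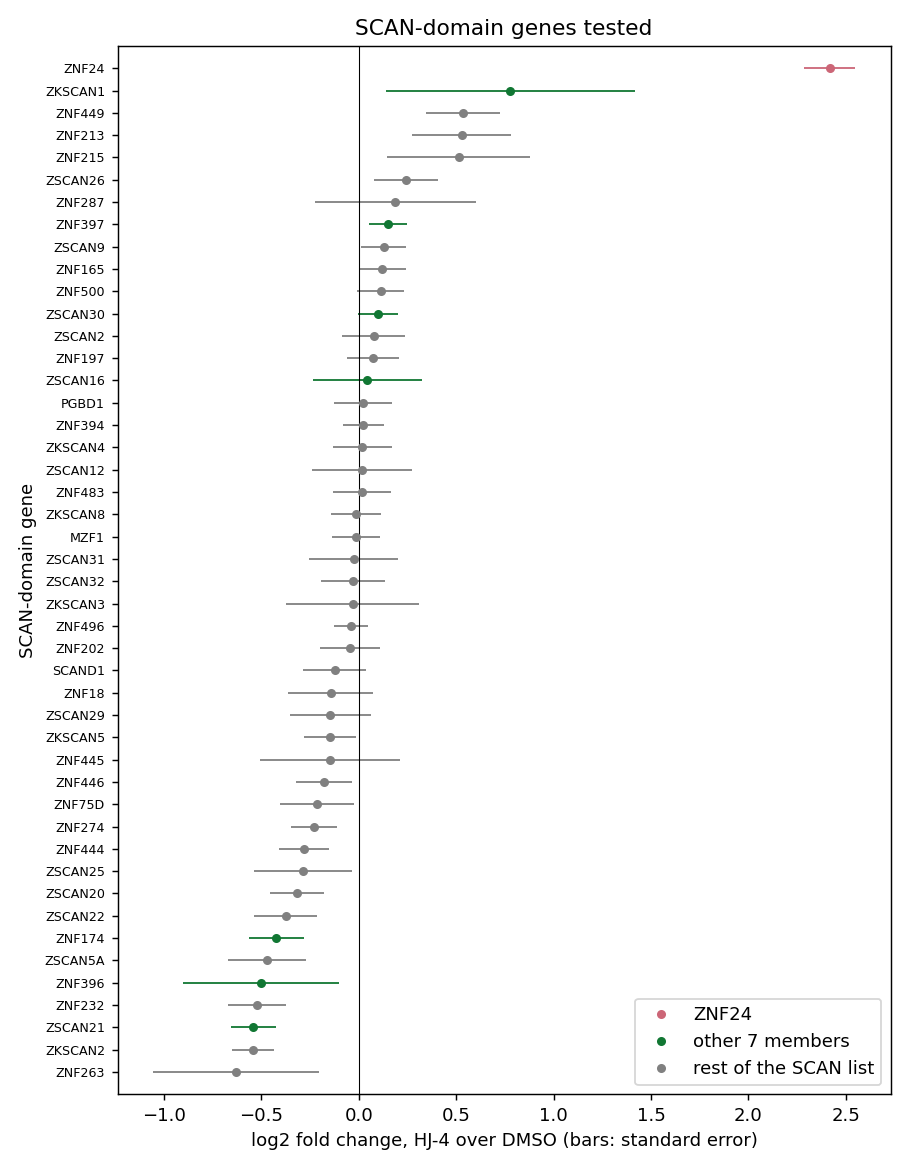
Log2 fold change (HJ-4 over DMSO) of the 46 tested SCAN-domain genes, ordered by size, with bars for the standard error. ZNF24 (red) lies at 2.42, and the 7 other members (green) are spread from -0.54 to 0.78 among the rest (grey).

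By position, the 10 tested SCAN genes on chromosome 6 had log2 fold changes from -0.03 to 0.24, of which 7 were positive. All 6 tested SCAN genes on chromosome 19 had negative values, from -0.47 to -0.02. Negative values were also found in 26 of all 46 tested SCAN genes. The smallest unadjusted p among the 6 was 0.0654 in edgeR (ZSCAN5A), and a pattern by position was not tested. On chromosome 16, 2 of 6 were positive. Of the 39 SCAN genes that averaged 5 CPM or more, 2 (5.13%) had DMSO libraries over 1 apart on the log2 scale, ZKSCAN1 and ZNF263, against 1.98% of all genes at that level. None had HJ-4 libraries that far apart, against 1.74% of all genes. ZNF263 had 40.9 and 16.3 CPM with DMSO and 17.8 and 19.2 CPM with HJ-4, with DMSO replicate 1 alone high. Thus DMSO replicate 1 was the low library for ZKSCAN1 and the high one for ZNF263.

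Genes described as controlled by ZNF24 were read in the same libraries. VEGFA had 179 and 157 CPM with DMSO and 193 and 191 CPM with HJ-4. Its log2 fold change was 0.19, with a standard error of 0.10 and an adjusted p of 0.398 from edgeR. The HJ-4 libraries lay above the DMSO libraries, by less than the DMSO libraries differed. CTNNB1, the beta-catenin gene, had 225 and 305 CPM with DMSO and 274 and 255 CPM with HJ-4, both within the range of DMSO (adjusted p = 0.997 from edgeR). PDGFRB, a growth factor receptor gene, stayed under 1 CPM in every library (0.446 and 0.266 with DMSO, 0.705 and 0.240 with HJ-4, adjusted p = 0.794 from edgeR). Of 247 genes with TCATTCAT in their RefSeq promoter window, 162 were tested. Their log2 fold change was positive in 93 and negative in 69, with a median of 0.06 against 0.01 over the 11122 tested genes with a window. At an unadjusted p under 0.05 in edgeR, 14.2% were higher and 8.02% lower, against 7.84% and 7.82% of the genes with a window.

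The genes of the KRAB co-repressor machinery had a median log2 fold change of 0.04 over the 7 tested. None reached an unadjusted p of 0.05 in edgeR, which with 7 genes is near the background of 7.93% in each direction. TRIM28, whose protein binds many KRAB domains, stood at -0.09 (standard error 0.10) on the log2 scale. SETDB1, a histone H3 lysine methyltransferase gene, stood at 0.07 (standard error 0.09).

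The genes closest to ZNF24 in pattern were found by the Euclidean distance of log2 CPM, centred on each gene's mean over the 4 libraries, among genes averaging 1 CPM or more. This search uses the contrast that picked ZNF24, so the values are a description. The nearest was ATF5, a bZIP transcription factor gene, at a distance of 0.245, with 3.22 and 2.96 CPM with DMSO and 15.1 and 14.1 CPM with HJ-4. BBC3, the gene of the pro-apoptotic protein PUMA, followed at 0.325, with 22.8 and 19.8 CPM against 90.9 and 94.5 CPM. TMEM250, a transmembrane protein gene, stood at 0.365, with 8.09 and 7.74 CPM against 33.7 and 35.6 CPM. ZFP90, a KRAB zinc finger gene without a SCAN domain, stood at 0.407, with 3.31 and 3.72 CPM against 19.1 and 15.4 CPM. The readthrough gene POC1B-GALNT4, which shares exons with POC1B and GALNT4 and is therefore uncertain, stood at 0.467, with 0.701 and 0.332 CPM against 2.91 and 3.06 CPM. DMSO and HJ-4 libraries did not overlap in any of the 5 genes, as follows from the likeness to ZNF24 that selected them.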

How the data were processed

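RNA sequencing counts of 4 HCT116 libraries, 2 treated with DMSO and 2 with 32 µM HJ-4 for 24 h, were analysed. The table the authors deposited holds raw read counts for 20263 Ensembl gene IDs, with no normalization. The study's methods name FastQC, Trimmomatic, STAR, GRCh38, featureCounts, TPM and limma, whereas HISAT2, bedtools and RSEM appear in the processing notes of the submitters. The tool behind the table, its annotation and its strand setting are not given in the sources used here. A counter without strand cannot separate overlapping genes on opposite strands, as for ZSCAN21 and ZNF3.

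Symbols and positions came from GENCODE version 44 (GRCh38), where 20148 IDs were found. The 115 unmatched IDs held at most 0.0533% of a library's counts. Genes were kept by filterByExpr, scaled by TMM and tested with the quasi-likelihood test of edgeR 4.0.16 in R 4.3.3, two-sided, with a model of condition alone, and p-values were adjusted by Benjamini-Hochberg over 14044 genes. edgeR was used in place of limma because the values are counts. The common biological coefficient of variation was 0.157. Standard errors were derived from the F statistic, and log2 CPM used a prior count of 2. The fits were first run on simulated counts with known changes. These were drawn from the fitted dispersions, so a single library standing apart, as for ZKSCAN1, was not simulated. DESeq2 1.42.0, limma-voom (limma 3.58.1), other scalings and filters, a replicate block and leaving out each library were the alternatives.

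The members and gene lists were chosen with earlier results of these data known. Named genes are the 8 members, the 6 other SCAN genes with the smallest unadjusted p, tested genes within 500 kb of ZNF24, 3 genes described as ZNF24 targets and the 5 genes nearest in pattern. ZNF3, ZNF263, ZNF445, TRIM28, SETDB1 and the marker genes were named after their values were seen. Replicates of a condition differed by more than counting noise (chi-square per degree of freedom 36.5 for DMSO and 21.9 for HJ-4) and were counted separately.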

Additional observations from a re-analysis of the deposited data

How the results depend on the processing

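The log2 fold change of ZNF24 ran from 2.27 to 2.58 over all alternatives, both reached by leaving out a DMSO library (2.58 without DMSO replicate 1). The number of genes called at an adjusted p under 0.05, 7 with edgeR as reported, was 12 without the filter on low counts, 574 with DESeq2's Wald test, and 0 to 88 when each library was left out. Leaving out DMSO replicate 1 gave 88 genes, leaving out DMSO replicate 2 gave 34, and edgeR called 0 with either HJ-4 library left out, where 1030 (without replicate 1) and 1184 (without replicate 2) genes had an unadjusted p under 0.05. DESeq2 was not run on 3 libraries, and the lone library of a condition was there assumed to vary like the others. With a replicate block the count was 31. The replicate numbers share no stated origin (correlation of replicate deviations -0.04), and the block put none of the 7 members besides ZNF24 past the adjusted threshold.

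The number of SCAN genes higher at an unadjusted p under 0.05, 2 as reported, was 1 with a mean of at least 1 CPM required and 1 to 5 when each library was left out (5 without DMSO replicate 2). The median log2 fold change of the SCAN list was -0.0580 on total counts, where that of all genes moved to -0.025, and ran from -0.0326 to 0.00856 when each library was left out (0.00856 without HJ-4 replicate 2). The median of genes with TCATTCAT promoters, 0.06 as reported, was 0.0348 on total counts, 0.0381 with a mean of at least 1 CPM, and 0.0450 to 0.0779 when each library was left out. ZSCAN16 reversed to -0.24 without DMSO replicate 1 and to -0.12 without HJ-4 replicate 2, with 0.40 as its highest value. Leaving out each library gave 0.06 to 0.24 for ZNF397 and 0.04 to 0.17 for ZSCAN30, with neither past the adjusted threshold. The cause was not tested. None of these 7 passed it under any alternative run, and ZNF396 was not tested where a mean of at least 1 CPM was required. At 18 to 30 reads, the 95% interval of ZNF396 was wide, from -1.53 to 0.53 on the log2 scale, and any change within it is compatible with the counts. The smallest detectable change was not computed.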

Other observations

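Zinc finger genes outside the SCAN list, taken by symbol after the data were seen, numbered 383 among the tested genes. Of these, 160 had a positive and 223 a negative log2 fold change with HJ-4, with a median of -0.06 against 0.00 over all tested genes. At an unadjusted p under 0.05 in edgeR, 20 (5.22%) were higher and 38 (9.92%) lower, against 7.93% and 7.93% of all tested genes.

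ZNF445, a SCAN gene with a KRAB domain and a 3′ UTR of 14870 bases, had 70.2 and 43.6 CPM with DMSO and 66.4 and 36.1 CPM with HJ-4. Replicate 1 was the higher library in both conditions.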
